A study of Mus musculus with 6 samples.

Results

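Mitochondrial ribosomal proteins are the nuclear-encoded proteins that, with 2 rRNAs made from mitochondrial DNA, build the ribosome inside mitochondria. Their transcripts were described here in mouse oocytes at the germinal vesicle stage, the full-grown stage before meiosis resumes. All rows of the deposited table whose gene symbol begins with Mrpl or Mrps and a digit were taken, which gave 74 of its 10896 genes. By their known place in the ribosome, 48 belong to the large subunit and 25 to the small subunit. The remaining 1, Mrps36, carries the name but is known as a component of the 2-oxoglutarate dehydrogenase complex. Mrpl52, Mrps30 and Mrps34 were not analysed here. The gene Mrpl58 stands in the table under its older symbol Ict1, which the choice by name leaves out, and is described below with proteins of this ribosome under other names.

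The study compared oocytes grown in culture with oocytes grown in the ovary, in 3 samples of 50 oocytes per group, all from (C57BL x CBA) F1 females. The in vitro group grew inside follicles that were released with collagenase from the pooled ovaries of several females aged 10 to 12 days, and that were then cultured on membrane inserts in MEM-alpha with fetal bovine serum, insulin, transferrin, selenium and FSH. The in vivo group was released with a needle from the ovaries of females aged 7 to 11 weeks, into M2 medium with dbcAMP, a cyclic AMP analogue known to hold oocytes at this stage. Growth in culture, donor age and the collection medium therefore cannot be told apart in any comparison below. Whether the replicate samples were separate animals or cultures was not stated, so the spread between them may be technical.

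As background, the mitochondrial ribosome makes the few proteins that mitochondrial DNA encodes, all of them core subunits of the respiratory chain and of ATP synthase. Every protein of this ribosome is encoded in the nucleus, made in the cytosol and imported. Part of the set descends from bacterial ribosomal proteins and surrounds the rRNA, and part was added during the evolution of mitochondria and lies mostly on the outside. The growing oocyte is known to accumulate a large stock of mitochondria, which the early embryo then divides among its cells.

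The deposited values were group means of normalised reads for each gene, with a log2 ratio and a PPEE, taken here for the posterior probability of equal expression. A gene is called when its PPEE was below 0.05. A PPEE is not a p-value. Since each mean was built from the whole reads of 3 libraries, the reads of single libraries were also worked out, for 7806 genes whose means did not exceed 500 and among them 63 of the 74 mitochondrial ribosomal protein genes. The libraries are named A, B and C within each group by their size and cannot be linked to replicate numbers. Below, 3 values of a group always stand in the order A, B, C. Over the recovered genes they held 763994 to 1144541 reads each. All 14 oocyte markers were in the table, such as Zp3 and Gdf9. Of the granulosa and cumulus markers 7 of 12 were in it, of the theca and stroma markers 1 of 10, and of the blood and endothelium markers 3 of 10.

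Most transcripts of the set had a higher mean in the oocytes grown in vitro, by a small margin. The mean was higher in vitro for 64 of the 74 genes, and 51.1% of all genes in the table lay in that direction. In the authors' deposited table the median log2 change of the set was 0.37, a 1.29-fold difference, with the middle of the set between 0.17 and 0.52 (quartiles), and the median of all genes was 0.02. Of the 74 genes, 12 were at least 1.5-fold higher in vitro and 1 was at least 1.5-fold lower. Over all 10896 genes these numbers were 1768 and 1416. By the PPEE that the authors' deposited table gives, 7 of the 74 genes were called higher in vitro and 0 were called lower. Over all genes the same call was made for 6.75% in the higher and for 8.31% in the lower direction. The 7 called genes were thus close to the background share in number, and 67 genes were not called. Short genes in general and single libraries moved in the same direction, with values given below. The PPEE carries no unadjusted p, and the count by a second test is given below.

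The median change varied among the classes of ribosomal proteins, as the plot of single genes by class shows, and the difference between classes was not tested. Large subunit proteins with a bacterial homologue had a median log2 change, by the authors' deposited table, of 0.45, with 28 of 30 higher in vitro and 4 called. Large subunit proteins specific to mitochondria had a median of 0.18, with 13 of 18 higher and 0 called. Small subunit proteins with a bacterial homologue had a median of 0.37, with 14 of 16 higher and 1 called. Small subunit proteins specific to mitochondria had a median of 0.31, with 8 of 9 higher and 2 called. These classes also differed in gene length, with median lengths of 961, 1418, 1020 and 1230 bases in the same order, and the part of length in their difference was not tested. Markers of oocytes and of other cells differed between the groups. Of the 14 oocyte markers 7 had a higher mean in vitro and 7 a lower one, with summed means of 151018 in vitro and 181885 in vivo. Bmp15 among them was called lower in vitro, with a PPEE in the authors' deposited table of 1.52e-08. Of the 7 granulosa and cumulus markers 5 had a higher mean in vitro and 2, Kitl and Nr5a2, a lower one. Their summed mean was 389 normalised reads in vitro and 272 in vivo, and Fshr and Inha were called higher in vitro. The limma voom adjusted p was 0.00820 for Inha and 0.0840 for Fshr. Fshr rested on few reads, with 14.7, 17.6 and 4.96 normalised reads in vitro and 2.43, 2.66 and 2.26 in vivo. Nr5a2 had 59.7, 69.5 and 52.1 normalised reads in vitro and 72.0, 85.9 and 71.2 in vivo, with no overlap in the other direction. In single libraries the sum of these markers was 325, 469 and 373 in vitro, against 287, 261 and 267 in vivo. Blood and endothelium markers, 3 in number, summed to 591 in vitro and 915 in vivo, with Pecam1 alone at 561 and 849. Among these Pecam1 was called lower in vitro, with a PPEE in the authors' deposited table of 0.00378. Kdr was 3.44-fold lower in vitro but was not called, with a PPEE in the authors' deposited table of 0.9996. Its limma voom adjusted p was 0.0137. That adjusted p of limma voom lay between 0.0575 and 0.0650 without in vitro library C, in vivo library A or in vivo library B. Cd68 was not called either. Theca and stroma had 1 listed marker, Cyp11a1, at 5.84 in vitro and 9.76 in vivo. The part of these markers in the results below was not tested.

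**Figure D1:**
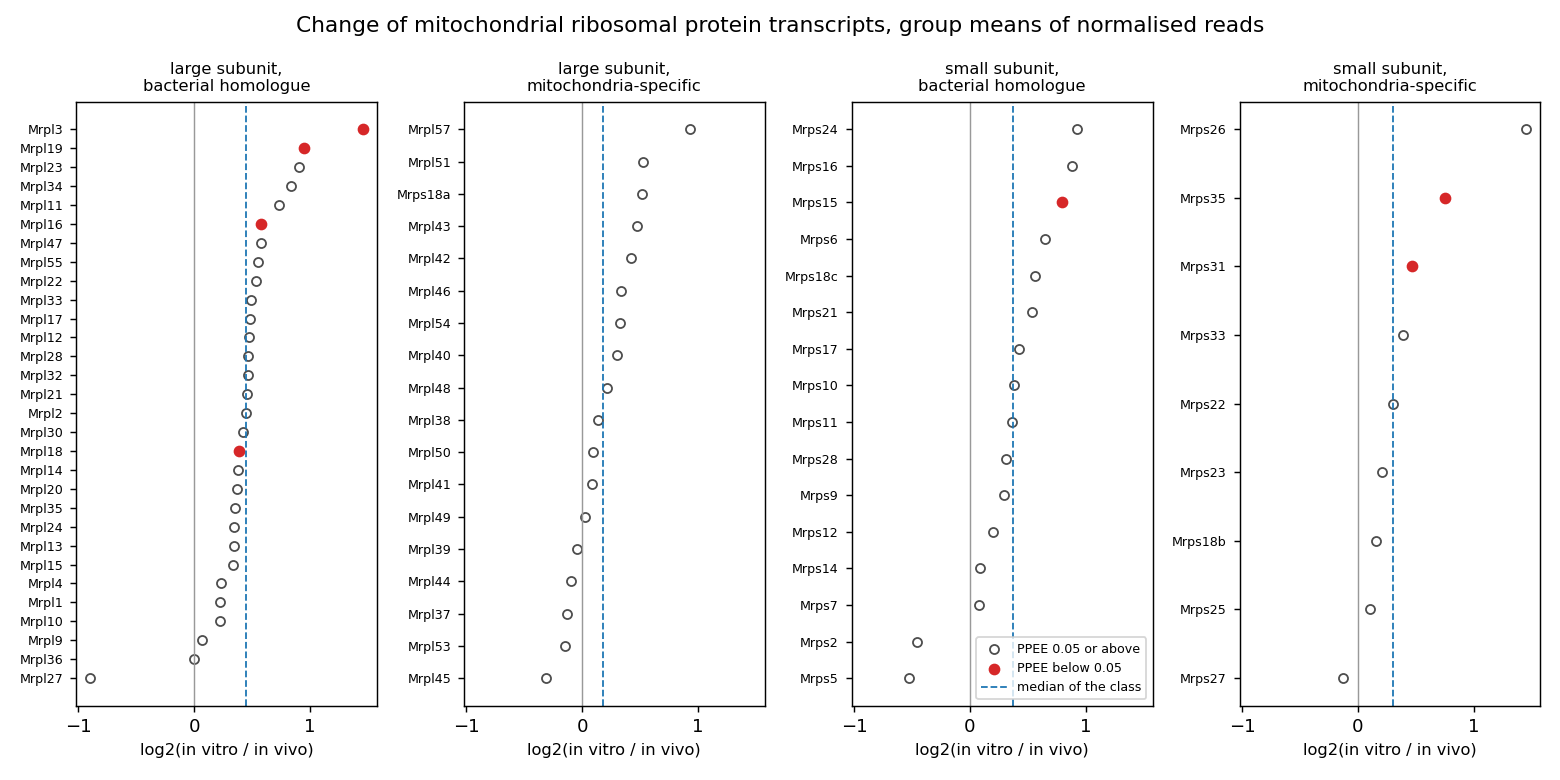
Change of 73 mitochondrial ribosomal protein transcripts in 4 classes, as the log2 ratio of the in vitro over the in vivo group mean (horizontal axis), with filled points for a PPEE below 0.05 and a dashed line at the class median. Most points lie right of 0, and all 7 filled points do.

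Among the small subunit proteins, Mrps35, Mrps15 and Mrps31 were called higher in vitro. Mrps35, a protein specific to mitochondria, stood at 293, 364 and 371 normalised reads in vitro. In vivo it stood at 189, 191 and 229. Every in vitro library lay above every in vivo library. The group means were 343 ± 43.0 and 203 ± 22.6 (SD, n = 3), a 1.69-fold difference, with a PPEE in the authors' deposited table of 1.1e-07 and a limma voom adjusted p of 0.0212. The adjusted p of limma voom was 0.102 without in vitro library C, 0.101 without in vivo library A and 0.105 without in vivo library B. Mrps35 had the lowest PPEE of the set.

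Mrps15, the counterpart of bacterial S15, which binds the rRNA of the small subunit, had 106, 150 and 118 normalised reads in vitro. It had 75.2, 70.9 and 68.9 in vivo. The groups did not overlap, and the in vivo libraries were close to each other. The means of 125 ± 23.1 and 71.6 ± 3.22 (SD, n = 3) differed 1.74-fold, with a PPEE in the authors' deposited table of 0.000193 and a limma voom adjusted p of 0.0487. That adjusted p of limma voom was between 0.107 and 0.158 when in vitro library B or C or any in vivo library was left out.

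Mrps31, another protein specific to mitochondria, had 267, 305 and 249 normalised reads in vitro and 184, 221 and 190 in vivo. Its groups again did not overlap, with a gap of less than 30 reads between the lowest in vitro and the highest in vivo library. Its means of 274 ± 28.4 and 198 ± 20.3 (SD, n = 3) differed 1.38-fold. The authors' deposited table gave it a PPEE of 0.000661, while the limma voom adjusted p was 0.0954.

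In the large subunit, Mrpl16, Mrpl19, Mrpl18 and Mrpl3 were called higher in vitro, and all of them have a bacterial homologue. Mrpl16, whose bacterial counterpart lies beside the tRNA sites, had 123, 157 and 151 normalised reads in vitro and 86.5, 105 and 96.0 in vivo. Its groups did not overlap. Its means of 144 ± 18.0 and 96.0 ± 9.44 (SD, n = 3) differed 1.5-fold, with a PPEE in the authors' deposited table of 0.00115 and a limma voom adjusted p of 0.0942. Without in vitro library A the limma voom adjusted p was 0.0288, and without each of the others it was between 0.173 and 0.256.

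Mrpl19, whose bacterial counterpart sits at the interface with the small subunit, had 45.9, 71.5 and 54.6 normalised reads in vitro. In vivo it had 35.6, 26.6 and 26.0. All in vitro libraries were above all in vivo libraries, and library B was the highest. The means of 57.4 ± 13.0 and 29.4 ± 5.38 (SD, n = 3) differed 1.95-fold, with a PPEE in the authors' deposited table of 0.00489 and a limma voom adjusted p of 0.0692, or 0.0221 without in vitro library A and between 0.126 and 0.209 without each of the others.

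Mrpl18, whose bacterial relative binds the smallest rRNA of the bacterial large subunit, had group means above the range in which reads of single libraries were recovered. The authors' means were 926 in vitro and 706 in vivo, a 1.31-fold difference, with a PPEE in the authors' deposited table of 0.00732. No spread between libraries can be set beside it.

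Mrpl3, counterpart of a bacterial protein that reaches toward the peptidyl transferase centre, had the largest log2 change of the set, 1.46 in the authors' deposited table. It had 57.9, 131 and 107 normalised reads in vitro and 31.5, 15.9 and 58.7 in vivo. These values overlapped, since in vivo library C lay just above in vitro library A. The means of 98.4 ± 37.1 and 35.4 ± 21.7 (SD, n = 3) differed 2.78-fold, with a limma voom adjusted p of 0.0322. This adjusted p of limma voom was 0.0889 without in vitro library B, 0.109 without in vitro library C, 0.110 without in vivo library A and 0.151 without in vivo library B. In the authors' deposited table Mrpl3 had a PPEE of 0.0316, the called gene nearest to the threshold.

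On the other side of the threshold, the nearest gene was Mrps9, the counterpart of bacterial S9, with a PPEE in the authors' deposited table of 0.152. It had 264, 303 and 252 normalised reads in vitro and 225, 205 and 238 in vivo. Its groups did not overlap, the means differed 1.23-fold, and the limma voom adjusted p was 0.254.

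Mrps26, a small subunit protein specific to mitochondria, was the only uncalled gene of the set with at least a 2-fold change. It had 24.8, 19.7 and 22.3 normalised reads in vitro against 8.08, 6.20 and 9.04 in vivo. The groups were well apart, and in vitro library B was the lowest of its group. The means of 22.3 ± 2.56 and 7.77 ± 1.44 (SD, n = 3) differed 2.87-fold. The authors' deposited table gave it a PPEE of 1, and the limma voom adjusted p was 0.0504. The limma voom adjusted p was 0.0464 with genes of few reads left out, 0.0542 with TMM library sizes and between 0.0570 and 0.182 with single libraries left out. In all, 10 genes of the set had a PPEE of exactly 1 in the authors' deposited table, and in 5 of them, Mrps26, Mrpl11, Mrps10, Mrpl10 and Mrpl45, the 2 groups of libraries did not overlap. Over all recovered genes, 17.8% had every in vitro library above every in vivo library and 15.4% had the reverse. Among the 1480 recovered genes with a PPEE of 1, 287 had every in vitro library above every in vivo library and 347 had the reverse. Libraries lying apart at this PPEE were thus not particular to the set. Mrpl11, Mrps10, Mrpl10 and Mrpl45 were named after their values were seen.

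**Figure D2:**
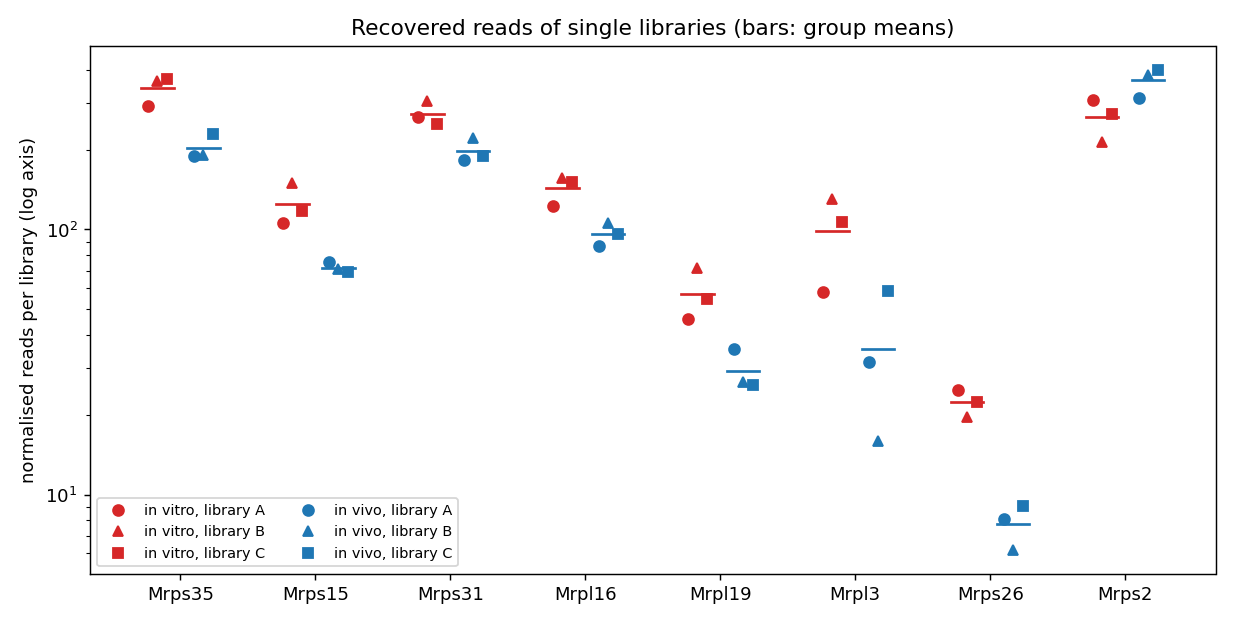
Normalised reads in single libraries (log axis) for the 6 called genes with recovered reads, for Mrps26 and for Mrps2, with the in vitro libraries in red, the in vivo libraries in blue, a symbol per library and a bar at each group mean. The groups are apart for 7 of the 8 genes and overlap for Mrpl3, and Mrps2 is lower in vitro.

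The genes with lower means in vitro were few and were not called. Mrps2 and Mrpl45, chosen after their values were seen, were the 2 genes of the set with every in vitro library below every in vivo library. Mrps2, the counterpart of bacterial S2, had 309, 214 and 273 normalised reads in vitro and 314, 382 and 400 in vivo. Its closest libraries of both groups, at 309 and 314, were almost level, and the limma voom adjusted p was 0.113, or 0.0272 without in vitro library A and up to 0.324 without another library. Mrpl45, known to anchor the ribosome at the inner membrane near the exit of the peptide tunnel, had 308, 296 and 278 normalised reads in vitro and 358, 381 and 358 in vivo. Its limma voom adjusted p was 0.183. The largest negative change was that of Mrpl27, counterpart of a bacterial protein near the peptidyl transferase centre, at a log2 change in the authors' deposited table of -0.90. It rested on few reads, with 3.68, 11.4 and 4.96 normalised reads in vitro and 19.4, 10.6 and 9.04 in vivo, and the groups overlapped.

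Other genes of the set, also chosen after their values were seen, differed in how far in vitro library B stood from the rest. Mrpl11, whose bacterial counterpart lies at the base of a stalk where translation factors bind, had 84.5, 94.3 and 81.9 normalised reads in vitro and 57.4, 59.3 and 39.5 in vivo. Its in vitro libraries were close together and above all in vivo libraries, and the limma voom adjusted p was 0.0783. Mrps16, the counterpart of bacterial S16, had 56.1, 109 and 36.0 normalised reads in vitro and 46.9, 35.4 and 26.0 in vivo. Here library B was the highest by far and the groups overlapped, with a limma voom adjusted p of 0.20. Mrpl34, the counterpart of a small bacterial protein of the large subunit, had 60.7, 109 and 47.1 normalised reads in vitro and 45.3, 46.1 and 29.4 in vivo. Its groups lay just apart, again with library B the highest, and the limma voom adjusted p was 0.150.

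To show sequence beside these values, the windows around the gene starts were searched for 5 motifs known from promoters of nuclear genes for mitochondrial proteins or from core promoters. RefSeq promoters of build GRCm38.p6 were at hand for 66 of the 74 genes, as 72 windows of 300 bases, 250 before and 50 after the start. The motif of the ETS factors, CCGGAAG, stood on either strand in 33.3% of these windows and in 17.8% of the 11231 windows of all genes in the table. The YY1 motif, AANATGGC, stood in 26.4% of the windows of the set and in 8.74% of all windows. For the palindromic motif of NRF1 the shares were 18.1% and 10.3%. The E-box CACGTG was found in 9.72% and 9.98%, and the TATA box TATAAA in 6.94% and 7.36%. No letters of 1 motif are contained in another. The windows of the set had a median GC content of 58.5%, against 60.3% over all windows. These are letter matches and were not measured as binding. The transcript of Nrf1 had authors' means of 1003 in vitro and 1147 in vivo and was not called. The transcript of Gabpa, an ETS factor, had normalised reads of 5.51, 5.18 and 11.2 in vitro and 12.1, 30.1 and 15.8 in vivo. These are few reads. The groups did not overlap, an order shared by 15.4% of all recovered genes, with a limma voom adjusted p of 0.127 and no call by PPEE. Gabpb1 (GA repeat binding protein, beta 1) went the other way, with authors' means of 716 in vitro and 485 in vivo. So did Yy1, with means of 9.61 and 6.67, and neither was called by PPEE.

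Among the called genes with an entry, Mrpl3, Mrpl18, Mrpl16, Mrps15 and Mrps31, the ETS letters stood before the start of Mrpl3 and Mrpl18. The 250 bases before the start are printed for this pair and for Mrps26, the uncalled gene with the largest change, which also holds the letters, to show how their place differed. Capitals mark the ETS letters on either strand. The windows are chr9:105053018-105053267 (plus strand) for Mrpl3, chr17:12916092-12916341 (minus strand) for Mrpl18 and chr2:130563507-130563756 (plus strand) for Mrps26, all in build GRCm38.p6 and written in the direction of the gene.
Mrpl3: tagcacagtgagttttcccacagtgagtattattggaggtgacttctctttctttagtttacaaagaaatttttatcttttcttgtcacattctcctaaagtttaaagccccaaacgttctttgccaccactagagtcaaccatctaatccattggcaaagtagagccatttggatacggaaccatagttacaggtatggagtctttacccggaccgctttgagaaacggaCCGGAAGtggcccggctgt
Mrpl18: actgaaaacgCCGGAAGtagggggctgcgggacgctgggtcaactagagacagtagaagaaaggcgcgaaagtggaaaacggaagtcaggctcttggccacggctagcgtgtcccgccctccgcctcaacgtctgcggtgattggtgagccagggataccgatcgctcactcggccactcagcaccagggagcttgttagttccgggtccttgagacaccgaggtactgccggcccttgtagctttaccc
Mrps26: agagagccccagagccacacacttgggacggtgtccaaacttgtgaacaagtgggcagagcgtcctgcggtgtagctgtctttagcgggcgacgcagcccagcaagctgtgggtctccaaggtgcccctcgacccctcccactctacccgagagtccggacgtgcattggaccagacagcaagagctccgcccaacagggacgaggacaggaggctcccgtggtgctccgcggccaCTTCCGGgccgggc
The match lay 19 to 13 bases before the start in Mrpl3 and 14 to 8 bases before it, on the opposite strand, in Mrps26. In Mrpl18 it lay 240 to 234 bases before the start. These genes were picked for their change and for holding the letters. The place of the match was not worked out for the other genes, so no share can be set beside it. In all, 24 of the 66 genes held a match in their windows, most of them uncalled.

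Across the 63 genes with recovered reads, limma voom called 3 higher in vitro, Mrps35, Mrps15 and Mrpl3, and 0 lower. Over all 7806 recovered genes it called 5.42% higher and 4.57% lower, so the share in the set, 3 of 63, lay near the background. At an unadjusted p under 0.05 in limma voom, 15 genes of the set were higher and 1, Mrps2, was lower, and over all recovered genes 16.2% were higher and 13% lower. All 3 in vitro libraries lay above all 3 in vivo libraries in 18 of the 63 genes, and over all genes this held for 17.8%. The reverse order held in 2 of the 63, and over all genes for 15.4%. The summed normalised reads of the 63 genes were 8967, 11724 and 9058 in vitro. They were 8370, 8447 and 7691 in vivo. The groups did not overlap in this sum, and in vitro library B stood above the rest. The mean sum was 9916 ± 1566 in vitro and 8169 ± 416 in vivo (SD, n = 3), a ratio of 1.21.

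The shift was largest in in vitro library B. Set against the mean of the in vivo libraries, the median log2 difference of the 63 genes was 0.16 for in vitro library A, 0.81 for B and 0.14 for C. These differences were computed after adding 0.5 to each value. In vivo library C stood off in the other direction, with a median of -0.25 against the mean of the other 2 in vivo libraries, where libraries A and B stood at 0.08 and 0.03. Library B was the highest of the in vitro libraries for 51 of the 63 genes, while over all genes it was the highest for 41.4%. In vivo library C was the lowest of its group for 42 of the 63, and over all genes for 37.1%. Without in vitro library B the median log2 change of the set in recovered reads was 0.18, with 46 of 63 genes higher in vitro, where it was 0.37 and 54 of 63 with all libraries. Without in vivo library C it was 0.27, with 50 of 63 higher. In vitro libraries A and C alone lay above all in vivo libraries in 18 of the 63 genes and below them in 5, where over all genes the shares were 21.4% and 18.8%.

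Over all genes these libraries stood apart by gene length, and mitochondrial ribosomal protein genes are short. The deposited lengths of the set ran from 423 to 6712 bases with a median of 1061, where the median of all genes was 2847. Of the set 60.8% were at most 1300 bases long, and of all genes 12.2%. In in vitro library B, all recovered genes of at most 700 bases had a median log2 difference of 1.03 from the in vivo mean, and the 13 genes of the set in that class had 0.96. Between 700 and 1000 bases the medians were 0.73 for all genes and 0.89 for the set, and between 1000 and 1300 bases they were 0.36 and 0.70. Above 1700 bases the medians of all genes in library B were below 0, while those of the set were 0.34 for 8 genes between 1700 and 2500 bases, 0.65 for 2 genes up to 4000 bases and 0.83 for 3 longer ones. These longer classes of the set held few genes. Among the 3 longest ones in vitro library C stood at 0.46 and in vivo library A, against the other in vivo libraries, at 0.43. In vitro libraries A and C showed little of the shift of short genes seen in library B, with medians of 0.13 and 0.08 for all genes of at most 700 bases. In in vivo library C the same shortest class stood at -0.48 for all genes and -0.63 for the set. It stood at 0.36 and 0.52 in in vivo library A, and at 0.04 and -0.04 in in vivo library B. Over 57 cytosolic ribosomal protein genes, also short, in vitro library B was again the highest and in vivo library C the lowest, with medians of 0.21, 1.17 and 0.12 in vitro and 0.24, 0.05 and -0.38 in vivo. Other libraries stood in another order than in the set, since in vivo library A lay above in vitro libraries A and C.

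**Figure D3:**
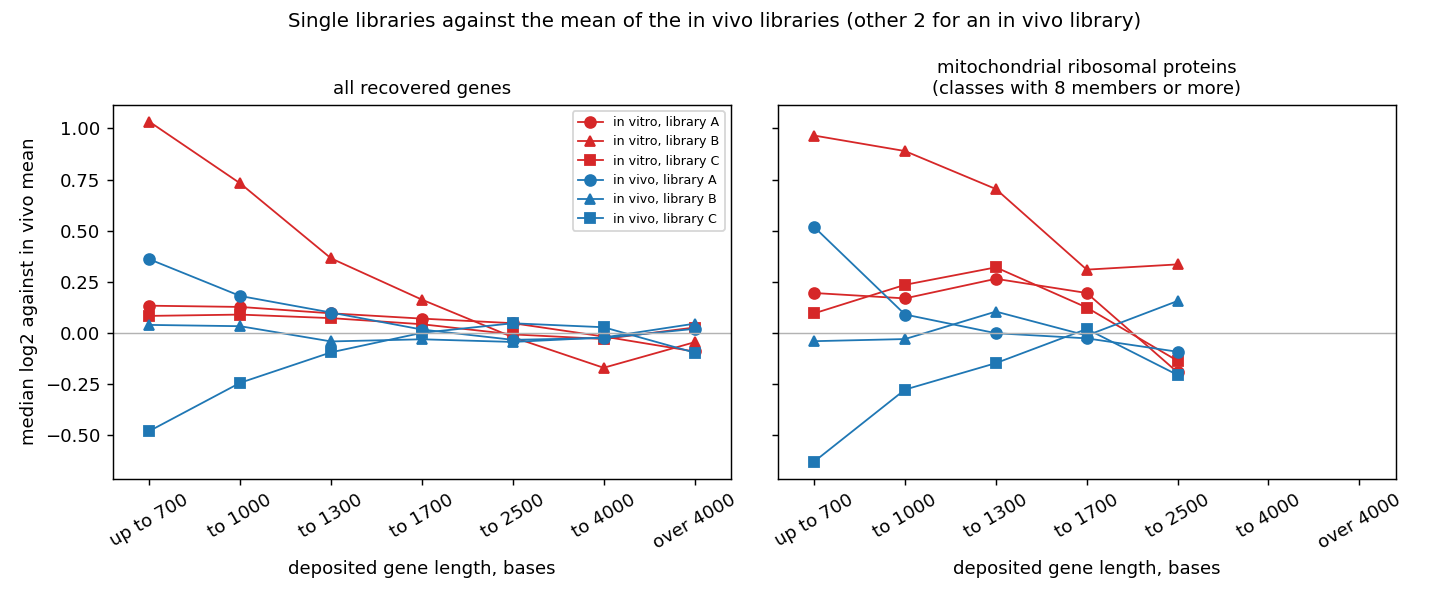
Median log2 difference of each library from the mean of the in vivo libraries (vertical axis; from the other 2 for an in vivo library), by class of gene length in bases (horizontal axis), for all recovered genes (left) and for the mitochondrial ribosomal protein genes (right, classes with 8 genes or more). In the shortest class of all genes in vitro library B stands at 1.03 and in vivo library C at -0.48, while in the set library B stays the highest up to the class of 1700 to 2500 bases, at 0.34.

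The group means showed the same dependence. Across the 74 genes the log2 change in the authors' deposited table had a Spearman correlation of -0.318 with gene length, and across all genes one of -0.161, given as descriptions since genes share their libraries. Among genes of at most 700 bases the median log2 change in the authors' deposited table was 0.42 for the 13 genes of the set and 0.49 for all genes. Here the set lay no higher than other genes of its length. Between 700 and 1000 bases the medians were 0.46 for 18 genes of the set and 0.36 for all. Between 1000 and 1300 bases they were 0.40 for 14 genes and 0.23 for all. Between 1300 and 1700 bases they were 0.21 for 13 and 0.12 for all, and between 1700 and 2500 bases 0.02 for 9 and -0.01 for all. The other 7 genes were longer than 2500 bases, with medians of 0.35 for 3 genes up to 4000 bases and 0.41 for 4 longer ones, where all genes stood at -0.09 and -0.05. Short genes in general thus also had higher means in vitro. The part of length and of library B in the shift of the set was not tested beyond these values.

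**Figure D4:**
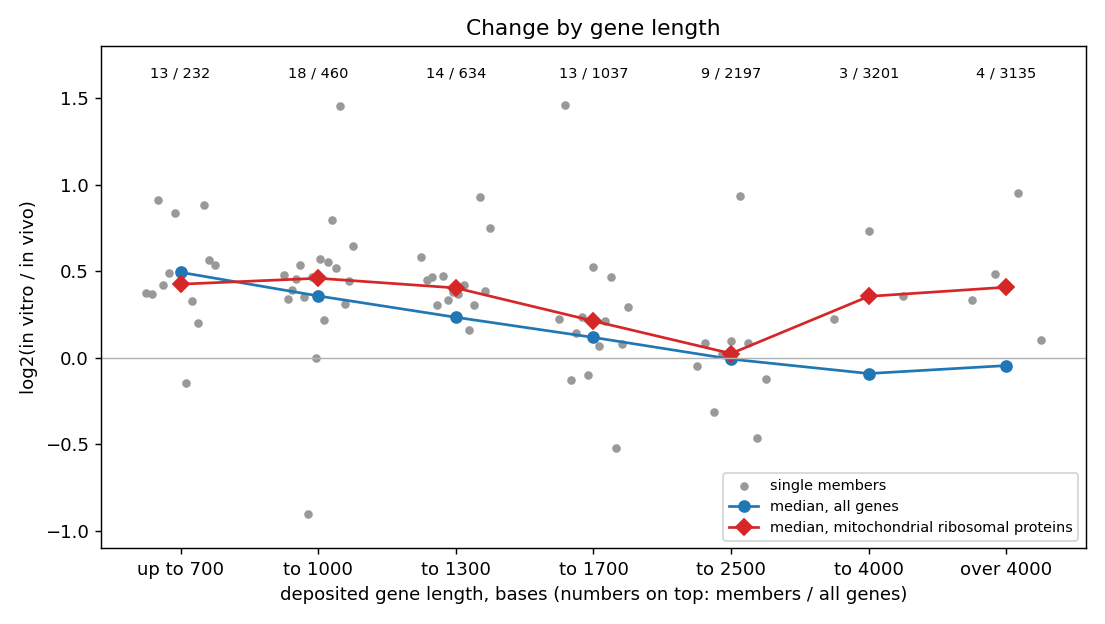
Log2 ratio of the in vitro over the in vivo mean (vertical axis) by class of deposited gene length in bases (horizontal axis), with grey points for single mitochondrial ribosomal protein genes, diamonds for their median and circles for the median of all genes. Both medians fall from the short classes to the class up to 2500 bases, from 0.42 to 0.02 in the set and from 0.49 to -0.01 over all genes.

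The called genes and Mrps26, which was not called, differed among themselves in library B. In Mrps35 in vitro library B lay between the other two, and in Mrps26 it was the lowest, while in Mrps15, Mrps31, Mrpl16, Mrpl19 and Mrpl3 it was the highest. Without that library the log2 change in recovered reads was 0.70 for Mrps35, 0.39 for Mrps31, 0.63 for Mrps15, 1.34 for Mrpl3 and 1.59 for Mrps26. Of the genes called by limma voom, Mrps35 alone passed without library B, with an adjusted p of 0.0488.

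Levels per kilobase of gene length spanned more than 100-fold within the set, although the proteins assemble in 1 complex. They ran from 8.07 to 1047 normalised reads per kilobase in vitro, with a median of 127, and from 5.86 to 847 in vivo, with a median of 101. The order was nearly the same in both groups, with a Spearman correlation of 0.974 across the 74 genes. The highest levels were those of Mrps22, with 1047 normalised reads per kilobase in vitro and 847 in vivo, Mrpl48 with 967 and 831, and Mrpl18 with 966 and 736. Mrps33 followed with 720 in vitro and 551 in vivo, and Mrpl24 with 568 and 446. Apart from Mrpl18 and Mrpl24, these are proteins specific to mitochondria. Reads of single libraries were not recovered for these 5 genes, so that the difference between neighbours such as Mrpl48 and Mrpl18 has no measured spread. The lowest levels were those of Mrpl19, with 11.4 normalised reads per kilobase in vitro and 5.86 in vivo, Mrpl57 with 13.8 and 7.08, and Mrps24 with 15.1 and 7.69. Mrpl27 had 8.07 in vitro and 15.7 in vivo, and Mrps26 had 22.5 and 7.84.

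The lowest genes rested on few reads. Mrps24, the counterpart of bacterial S3, had 10.1, 27.0 and 8.68 normalised reads in vitro and 10.5, 7.09 and 5.65 in vivo. Mrpl57, a protein specific to mitochondria, had 20.2, 50.8 and 24.8 in vitro and 15.4, 20.4 and 13.6 in vivo. In both genes in vitro library B was far above the other libraries and the groups overlapped, so that their order among the lowest genes is not resolved. The deposited length of Mrpl19, 5016 bases, places it last. With the length of the longest GENCODE transcript in place of the deposited length, all 5 lowest genes stayed the same, while Mrpl9 and Mrps18b took the place of Mrpl48 and Mrpl24 among the 5 highest.

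Other genes of mitochondrial translation changed in both directions. Among 14 translation factors 2 were called higher in vitro and 2 lower, with a median log2 change of 0.26 by the authors' deposited table. Higher were Oxa1l, which inserts newly made mitochondrial proteins into the inner membrane, at a log2 change of 0.43 and a PPEE in the authors' deposited table of 0.00287, and the initiation factor Mtif3 at 0.22 and 0.0144. Lower were the initiation factor Mtif2, at -0.83 and a PPEE in the authors' deposited table of 0.000149, and Gfm2, a factor of ribosome recycling, at -0.51 and 0.00804. Oxa1l had 225, 196 and 239 normalised reads in vitro and 167, 147 and 174 in vivo. Mtif2 had 38.6, 46.6 and 47.1 in vitro and 85.7, 89.5 and 62.1 in vivo. Neither gene's groups overlapped. Their limma voom adjusted p was 0.132 for Oxa1l and 0.0594 for Mtif2.

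Of 24 genes of ribosome assembly and rRNA modification, 1 was called higher in vitro and 1 lower, with 0.18 as the median log2 change by the authors' deposited table. Malsu1, an assembly factor of the large subunit, had 14.7, 28.0 and 26.1 normalised reads in vitro and 6.47, 0.886 and 6.78 in vivo, a 4.87-fold difference of the means with a limma voom adjusted p of 0.0384, which lay between 0.0667 and 0.164 when 1 library other than in vitro library A was left out. Wbscr16, an older symbol of the assembly factor gene Rcc1l, had 11.0, 5.18 and 6.20 normalised reads in vitro and 30.7, 41.6 and 23.7 in vivo. It was 4.29-fold lower in vitro, with a limma voom adjusted p of 0.0260, which lay between 0.0831 and 0.107 without in vitro library B or C or in vivo library A or B. The groups did not overlap for either gene, and the change of each was larger than that of any mitochondrial ribosomal protein. Malsu1 and Wbscr16 rested on fewer than 50 reads per library. Malsu1 had only 8, 1 and 6 reads in vivo, and with a pseudocount of 5 its log2 change was 1.52 in place of 2.15.

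Among 16 genes of mitochondrial transcription and DNA maintenance, 0 were called higher and 1 lower, and the median log2 change was -0.05 in the authors' deposited table. The called gene was Peo1, the helicase of mitochondrial DNA replication, with 152, 123 and 108 normalised reads in vitro and 312, 269 and 290 in vivo. It was 2.28-fold lower in vitro with a limma voom adjusted p of 0.00619. Of 6 mitochondrial ribosomal proteins under other names, 0 were called by PPEE, and their median log2 change was 0.28 in the authors' deposited table. Gadd45gip1 among them had 195, 378 and 196 normalised reads in vitro and 145, 102 and 113 in vivo, with a limma voom adjusted p of 0.0307, and in vitro library B was again the highest. This adjusted p of limma voom was between 0.0713 and 0.131 when 1 library other than in vitro library A was left out. Ict1, the gene now named Mrpl58, had 216, 382 and 236 normalised reads in vitro and 236, 226 and 189 in vivo, so the groups overlapped, with a limma voom adjusted p of 0.369.

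The 77 cytosolic ribosomal proteins, which build the ribosome outside mitochondria, served as a comparison. Of these, 72 were higher in vitro, 2 were called higher and 0 lower, and the median log2 change was 0.60 in the authors' deposited table. Their median length was 734 bases. The difference between both sets of ribosomal proteins was not tested.

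Mrps36, the gene of the set outside the ribosome, had authors' means of 251 in vitro and 185 in vivo. It had 206, 352 and 196 normalised reads in vitro and 218, 181 and 155 in vivo, so the groups overlapped, and the limma voom adjusted p was 0.274. It thus showed the same high value in library B as most of the set.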

How the data were processed

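Total RNA of 6 samples of 50 oocytes, 3 per group, was sequenced after amplification of cDNA from 10 ng with a low input kit, per the labels' protocols. The aligner BWA and the build mm9 were named without versions, per the submitters' processing notes. The deposited table holds a signal per gene and group, the authors' mean of normalised reads, with scale factors not given in the sources used here. The authors also deposited a log2 ratio, which adding 0.599 to both means recomputed to within 5.6e-09, and a PPEE between 0 and 1, read from the usual meaning of the term.

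Whole reads per library were recovered by solving each mean up to 500 for whole multiples of 3 steps. A single solution was found for 95.4% of these means in vitro and 95.7% in vivo. Values shifted at random were solved in 4.64% and 5.66% of cases, and in 22.1% and 29.2% between means of 300 and 500. Checked on means made with these steps, 100% of solutions were right. The 7806 genes solved in both groups were fitted together with limma voom (limma 3.58.1, R 4.3.3), 2-sided, with library sizes proportional to the recovered size factors and Benjamini-Hochberg adjustment at 0.05. Tested on simulated data over 7806 genes with 200 changed, it found 67% of 2-fold and 93% of 4-fold changes. Unchanged genes made up 5.33% of the calls. These shares rest on a single dispersion of 0.0271. Whether they hold where short genes shift together within a library, as in in vitro library B, was not tested. The edgeR test planned for counts per sample was not run, since the table holds group means. Tables used Python 3.11.15 and pandas 2.3.3.

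Named were the called genes, those nearest the PPEE threshold, uncalled genes with at least a 2-fold change, the 5 highest and 5 lowest per kilobase, and called genes of related lists. The members and lists were chosen with earlier results of these data known. Alternatives covered thresholds, pseudocounts, filters, scaling, library sizes and single libraries left out. Gene names came from the table, and transcript lengths from GENCODE.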

Additional observations from a re-analysis of the deposited data

How the results depend on the processing

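No paired analysis was possible because the recovered libraries carry no replicate numbers of the labels, so a replicate block could not be fitted. The median change kept its direction in every alternative, and no alternative called more genes of the set lower than higher. Without in vitro library C, in vivo library A or in vivo library B, limma voom called 0 in either direction. Single genes did not all keep their direction: of the 63 genes with recovered reads, 12 changed sign in at least 1 alternative. Of these, 8 did so without in vitro library B and 4 without in vivo library C. These 12 had log2 changes of at most 0.31 in size with all libraries. The log2 change of the granulosa marker Kitl lay between -0.39 and 0.11 with single libraries left out. The median log2 change of 0.37 lay between 0.32 and 0.38 with pseudocounts of 0, 1 or 5, with means of at least 10, after centring on all genes and with both groups scaled to the same sum. Of the 7 genes called higher by PPEE, 6 were counted at a PPEE below 0.01, 4 with a change of at least 1.5-fold as well, and limma voom called 3; 0 were called lower in each case. The 3 genes called higher by limma voom became 1 when only genes with both means up to 200 were fitted. This alternative was chosen after seeing the data, and 42 genes of the set remained to be tested. Mrps35, with means of 343 and 203, was not among them, and Mrps15 had a limma voom adjusted p of 0.0548. When single libraries were left out, limma voom called between 0 and 10 genes of the set higher. It called 10 without in vitro library A, 1 without B and 0 without C. Without in vivo library A or B it called 0, and without in vivo library C it called 2. The share called higher over all genes moved with these counts, from 0.179% to 15.0%. Genes called lower numbered 0 to 2, with Mrps2 and Mrps5 called without in vitro library A. The causes were not tested beyond the fewer libraries. With TMM library sizes 2 genes were called, and Mrps15 then had a limma voom adjusted p of 0.0521; limma trend and a minimum of 10 reads called 4. The median in recovered reads lay between 0.18 and 0.49 without single libraries, lowest without in vitro library B. With a pseudocount of 5 the log2 change of Mrps26 was 1.09 in place of 1.45. Depth limits the genes with few reads, such as Mrpl27 and Mrps24.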
